A study of Solanum lycopersicum with 28 samples.

Results

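The regions described here are the H3K9ac peaks in the middle of the tomato chromosomes. They were chosen by position alone, as every peak of the H3K9ac list on chromosomes 1 to 12 whose midpoint lay between 25% and 75% of the chromosome length, and they numbered 10681 of 78175 H3K9ac peaks on the 12 chromosomes (13.7%). Because the H3K9ac list itself selected them, their number, width and enrichment are given as description without a test, and comparisons are confined to the other lists. The reference set was the 43946 H3K9ac peaks (56.2%) with a midpoint in the outer 10% at either end. The former are called central and the latter terminal peaks, and the 23548 peaks between them entered only the totals.

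The data came from chromatin immunoprecipitation followed by sequencing (ChIP-seq), in which an antibody pulls down a protein or a modified histone together with the DNA it holds, and that DNA is read. Every library came from leaves of wild type plants of the tomato cultivar M82, 4 weeks old and kept at 24 °C under 16 h days, and no plant carried a mutation or received a treatment. The 28 peak lists covered 26 histone modifications, RNA polymerase II (Pol2) and the Input, chromatin that was sequenced without immunoprecipitation, with 1 library per target according to the labels. With 1 library per target no p-value can be given for a difference between targets or zones. Intervals below are 95% intervals for shares of peaks (Wilson for a share, Newcombe for a difference of shares), they cover counting error only, and the values of the 12 chromosomes, which are parts of the same libraries, are given as the spread.

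Acetylation of histone tails loosens the contact between nucleosome and DNA and is found at promoters and enhancers that are open or in use. H3K9ac, acetylation of lysine 9 of histone H3, sits on the same lysine that carries H3K9me2, the methylation of silenced transposons in plants, so that a single H3 tail can hold only 1 of them. Tomato chromosomes have long pericentromeric stretches rich in transposons and poor in genes, flanked by gene-rich distal arms. In these data H3K9me2 peaks covered 56.7% of the bases of the central zone and 9.77% of those of the terminal zone. Chromosome 2 was an exception, with 32.2% and 33.1%.

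Central peaks were sparse. The central zone spanned 401 Mb and held 26.6 H3K9ac peaks per Mb, whereas the terminal zone spanned 160 Mb and held 274 per Mb. H3K9ac peaks took up 2.23% of central and 27.4% of terminal bases. The median central peak was 552 bp wide (quartiles 287 and 1044 bp) with a fold enrichment (reads stacked at the summit relative to those expected locally) of 2.71 (quartiles 2.07 and 6.06). The median terminal peak was 595 bp wide with a fold of 2.66. The solved read pileup at the summit had a median of 30 reads in both zones, against a solved local background of 10.8 and 11.2 reads, and the q-value was under 0.05 in 90.4% of central and 91.7% of terminal peaks. All of these peaks passed the same calling threshold, so the similar medians describe the called peaks only. For its chromatin states the study also required a pileup above 36, a limit that was not applied here. Among the 10332 central and 41676 terminal peaks with a solved pileup, it was above 36 in 39.8% and 38.3%. The peaks of smallest p-value, 349 central and 2270 terminal, were not solved, so both shares leave out strong peaks.

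Density changed steeply along the chromosome. In slices of 5% of chromosome length, pooled over the 12 chromosomes, it was 343 peaks per Mb in the last slice and 9.68 per Mb in the slice from 25% to 30%. The cover by H3K9me2 peaks ran the other way, from 2.15% of bases in the last slice to 62.7% in the slice from 30% to 35%. Within the central zone, density was 18.2 peaks per Mb or less up to 60% of the length and then climbed to 74.9 per Mb in the slice from 70% to 75%. The zone was defined by length and not by the centromeres, whose positions were not used here, and its right side was its denser side.

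**Figure D1:**
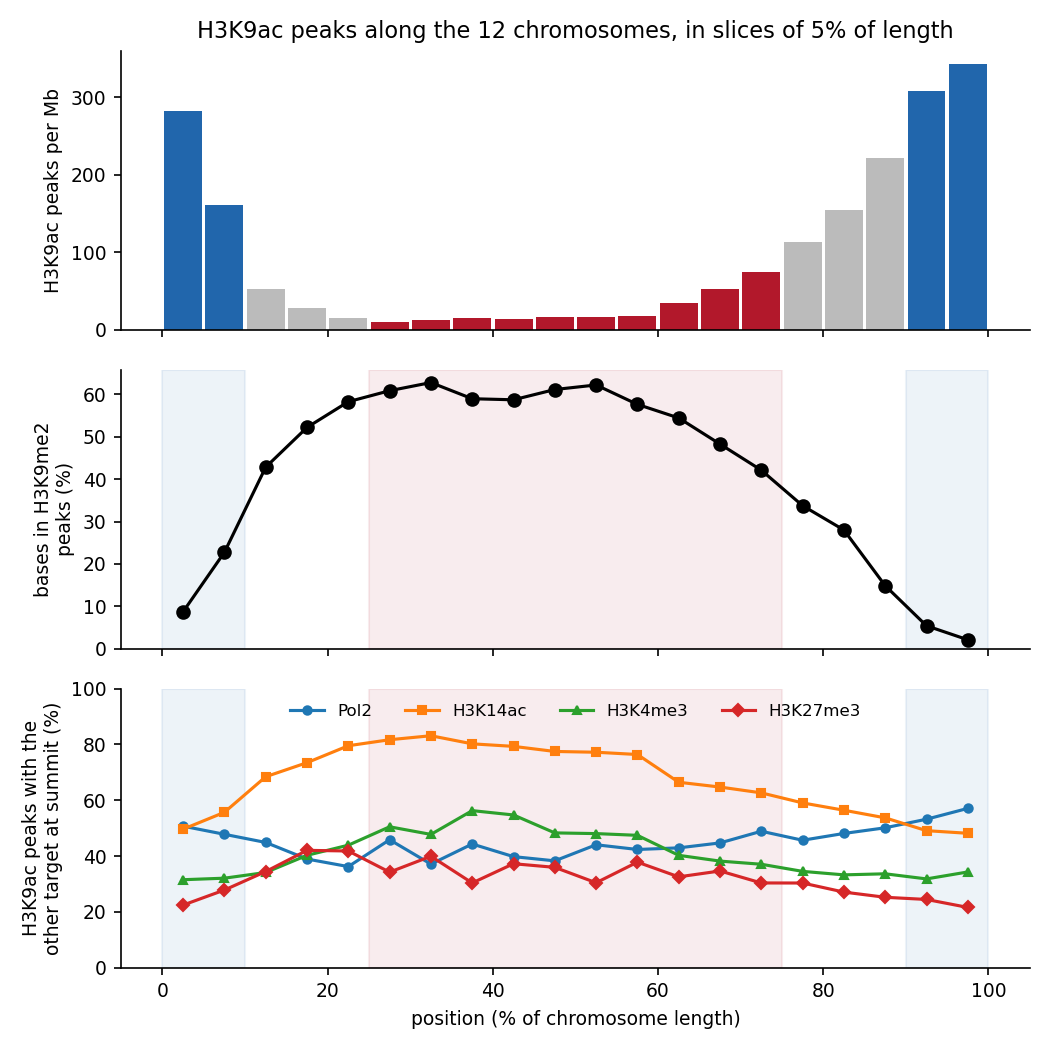
H3K9ac peak density (top, peaks per Mb), share of bases in H3K9me2 peaks (middle, %) and share of H3K9ac summits inside a peak of 4 other targets (bottom, %) in 20 slices of 5% of chromosome length, pooled over the 12 chromosomes; red marks the central zone, blue the terminal zones and grey the rest. Density is lowest at 25% to 30% (9.68 per Mb), where the H3K14ac share is 81.7%, and highest in the last slice (343 per Mb), where it is 48.2%.

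The members were unevenly divided between chromosomes. Chromosome 2 held 3238 of them (30.3%), chromosome 6 held 1340 and chromosome 3 held 1179, while chromosome 12 had the fewest, 333, or 9.46 per Mb. The central zone of chromosome 2 differed from the rest in being only 32.2% covered by H3K9me2, about as much as its own terminal zone (33.1%). On the other 11 chromosomes H3K9me2 covered 50.04% to 62.1% of central and 4.46% to 11.6% of terminal bases. For this reason the values of chromosome 2 are given apart where they differ. At the limits of the zone, the 24 peaks just inside 25% or 75% of the length on the 12 chromosomes had a median fold of 4.12 and a median width of 865 bp, and the 24 peaks just outside had a fold of 3.08 and a width of 626 bp.

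To see what accompanied H3K9ac, each summit was looked up in the 27 other lists, and a target was counted as present when the summit lay inside one of its peaks with a fold above 1.5. All 12 other acetylations were present at a larger share of central than of terminal summits, both in the pooled zones and on each of the 12 chromosomes. RNA polymerase II was present at a smaller share, again on all 12 chromosomes. H3K4me3, H3K4me2, H3K27me2 and H3K27me3 were more frequent in the centre, H3K4me1 was less frequent, and H3K9me2 was found at no summit in either zone.

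A technical property of the lists ran along with these directions. The file names of 22 of the 26 other targets carry a replicate tag, and all 22 were more frequent at central than at terminal summits. The 4 without a tag were Pol2, H3K4me1, H3K36me3 and H3K9me2, of which 3 were less frequent in the centre and the last was at 0 in both zones. The H3K9ac list and the Input list have no tag either, and the Input was more frequent in the centre. The sources used here do not say whether the tag goes with another way of processing, so the kind of target and the kind of list cannot be told apart as the source of the opposite directions, the lower share of Pol2 included.

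**Figure D2:**
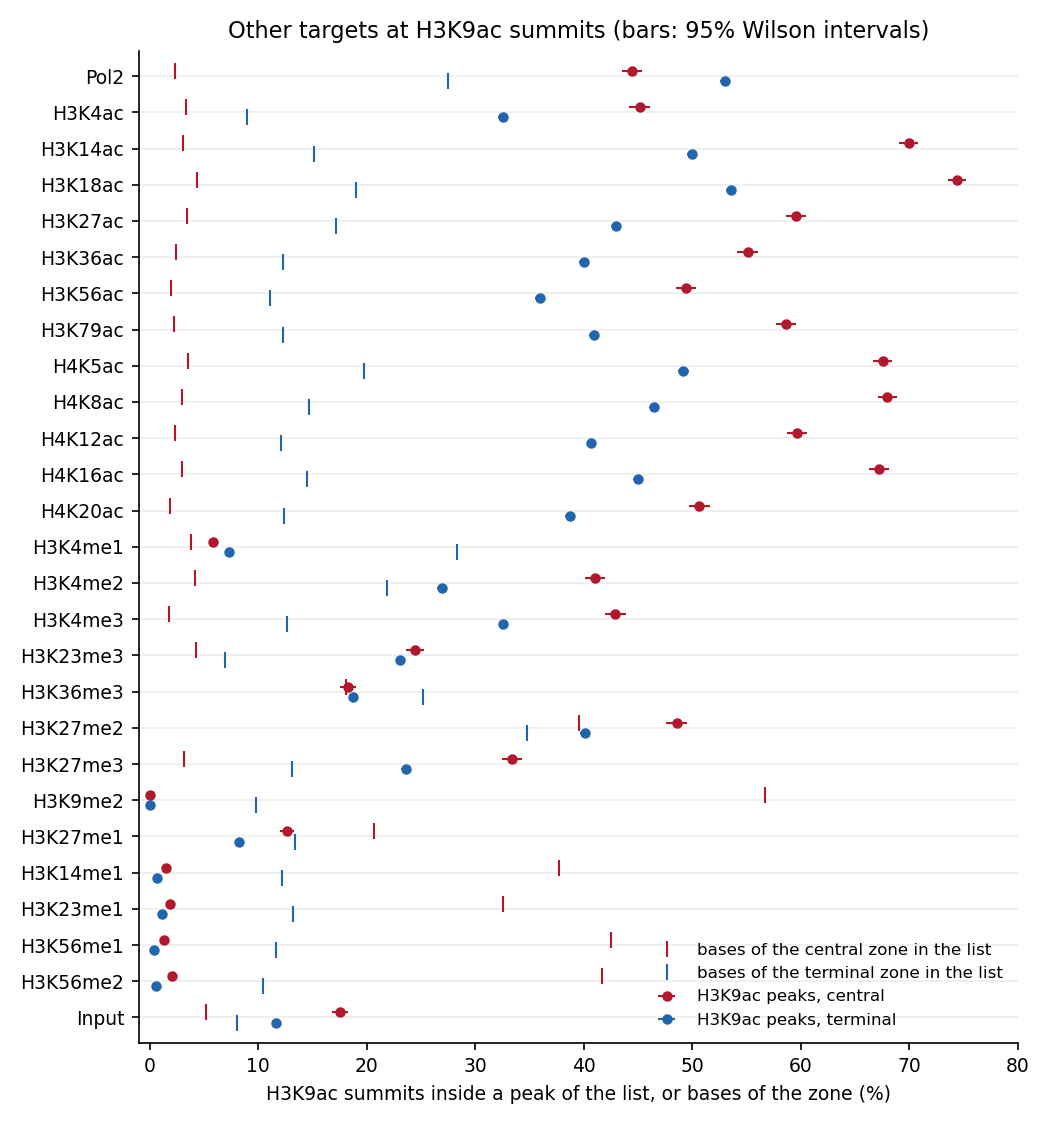
Share of H3K9ac summits (circles, %, with 95% Wilson intervals) inside a peak of each other list for central (red) and terminal (blue) peaks, beside the share of the bases of each zone that the list covers (vertical ticks, %). Acetylation circles are at 45.2% to 74.4% in the centre and at 32.5% to 53.6% at the ends, Pol2 is at 44.5% and 53.0%, and the 5 least frequent targets are at most at 2.05%.

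Among acetylations of histone H3, H3K18ac was at 74.4% of central summits (95% interval 73.6% to 75.2%) and at 53.6% of terminal summits, with 59.1% over all H3K9ac peaks as the background. H3K14ac was at 69.9% against 49.9% (55.2% over all). On single chromosomes the central H3K14ac share ran from 57.1% on chromosome 2 to 83.7% on chromosome 9 with a median of 78.4%, and the terminal share from 45.5% to 53.5%, so the ranges of the 12 chromosomes did not overlap. This absence of overlap between the central and the terminal chromosome values held for every one of the 12 acetylations. H3K27ac, a mark of active enhancers and promoters, was at 59.6% of central and 42.9% of terminal summits (46.9% over all). H3K79ac, on the core of the nucleosome, was at 58.7% and 41.0% (45.2% over all). H3K36ac was at 55.1% and 40.1% (43.6% over all). H3K56ac, which lies where DNA enters the nucleosome, was at 49.4% and 35.99% (38.9% over all). H3K4ac was the least frequent of the H3 acetylations, at 45.2% and 32.5% (35.3% over all).

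The acetylations of histone H4 behaved alike. H4K16ac, known to loosen the folding of nucleosome arrays, was at 67.2% of central and 45.0% of terminal summits (50.4% over all), and this difference of 22.2 percentage points (interval 21.2 to 23.2) was the largest of the 27 lists. Over the 12 chromosomes the H4K16ac difference averaged 29.96 ± 9.80 points (SD, n = 12 chromosomes) and was smallest on chromosome 2 (11.4 points). H4K8ac was at 68.0% and 46.5% (52.0% over all). H4K5ac, the only acetylation deposited as a broad list, was at 67.5% and 49.2% (54.0% over all). H4K12ac was at 59.7% and 40.7% (45.2% over all). H4K20ac had the smallest difference of the 12, 11.9 points, with 50.7% of central and 38.8% of terminal summits (41.4% over all). The study gives the same antibody catalogue number for H4K12ac and H4K20ac, so how far these lists stand for separate targets is not known.

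**Figure D3:**
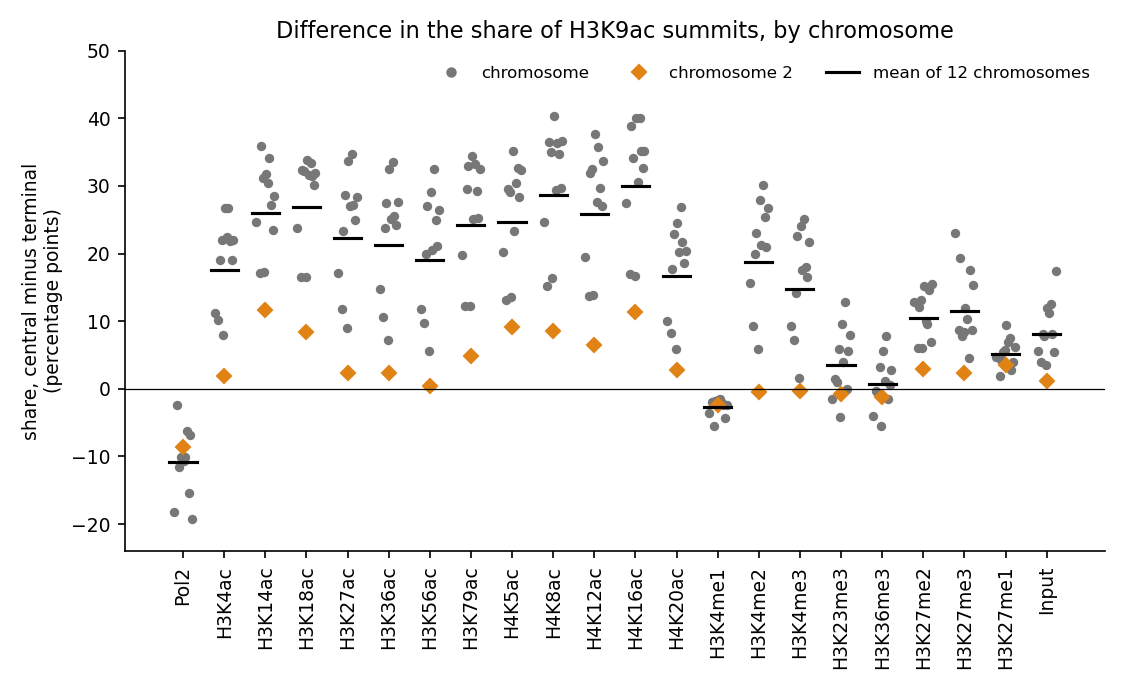
Share of H3K9ac summits with each other target, central minus terminal (percentage points), on each of the 12 chromosomes (points), with chromosome 2 as orange diamonds and the mean as a black line; H3K9me2 and the 4 rarest methylations are left out. Every acetylation point lies above 0 and every Pol2 point below 0, and chromosome 2 has the smallest difference for every acetylation (0.442 points for H3K56ac).

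These shares were far above the share of the zone that each list covered. The 12 acetylation lists covered 1.82% to 4.37% of central bases, so that their share at central summits was 13.5 to 27.8 times their cover. At the ends the corresponding ratios were 2.50 to 3.63, because there the lists covered much more of the zone.

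Acetylations also accumulated on the same members. A central summit lay in a mean of 7.25 and a median of 8 of the 12 other acetylation lists, and a terminal summit in a mean of 5.16 and a median of 3. The chromosome means ran from 5.85 to 8.97 in the centre and from 4.95 to 5.47 at the ends, without overlap. All 12 other acetylations were found at 31.2% of central and 21.7% of terminal summits (23.4% over all H3K9ac peaks). No other acetylation was found at 9.90% of central and 23.1% of terminal summits (19.2% over all). Both distributions had their most frequent values at the extremes, and the centre had less of the extreme with no other acetylation and more of the fully acetylated one.

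**Figure D4:**
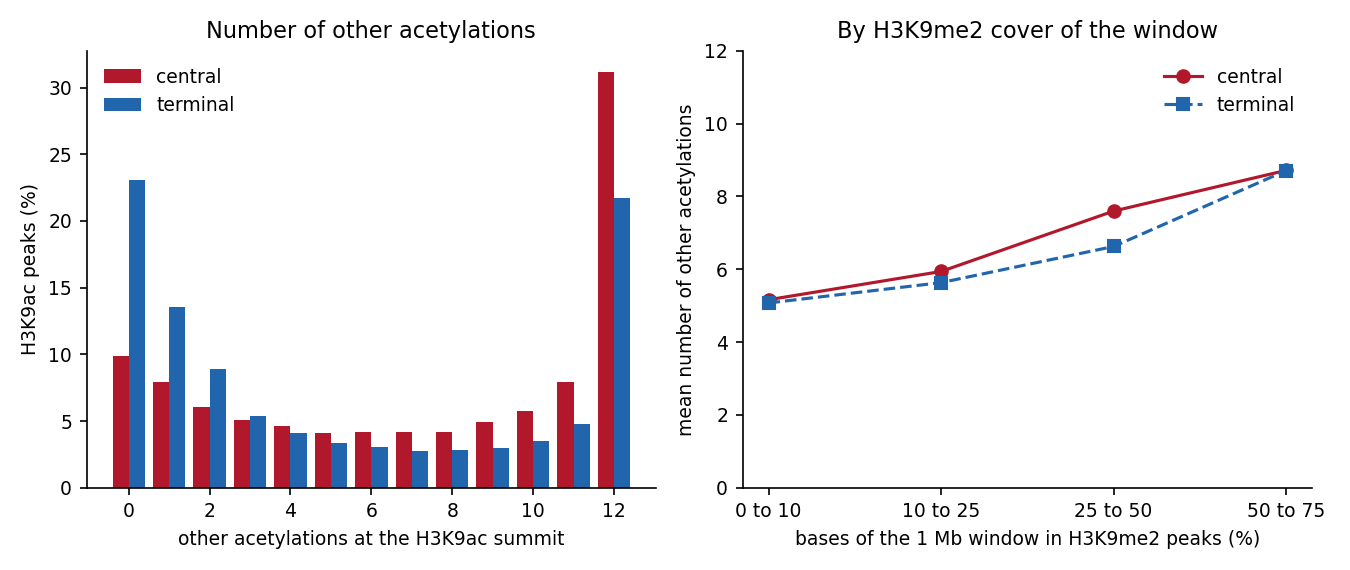
Left, share of central (red) and terminal (blue) H3K9ac peaks (%) by the number of other acetylations at the summit, from 0 to 12. Right, mean number of other acetylations by the share of the 1 Mb window in H3K9me2 peaks (%), with windows over 75% left out for their 6 terminal peaks; both zones climb together, from 5.16 and 5.08 in windows under 10% to 8.72 and 8.71 in windows of 50% to 75%.

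Pol2, which marks DNA engaged by the transcription machinery, was at 44.5% of central summits (interval 43.5% to 45.4%) and at 53.0% of terminal summits, with 50.1% over all H3K9ac peaks. The difference was -8.55 points (interval -9.60 to -7.49). On single chromosomes it ran from -19.3 points on chromosome 12 to -2.37 points on chromosome 3, with 35.4% to 50.6% in the centre and 49.0% to 56.9% at the ends. The Pol2 list covered 2.28% of central bases, so Pol2 was still 19.5 times as frequent at central H3K9ac summits as its cover of the zone. At the ends the list covered 27.5% of bases, and the ratio was 1.93. Even with Pol2 at every terminal summit, the ratio at the ends could not have reached the central one. The order of these ratios was thus set by cover and does not compare Pol2 between the zones.

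Highly acetylated members without Pol2 at the summit were a sizeable class in the centres. Such members may still hold a Pol2 peak elsewhere. With at least 1 bp shared, Pol2 was at 65.1% of all central and 73.9% of all terminal peaks. Summits with 10 to 12 other acetylations and no Pol2 made up 20.1% of central and 8.003% of terminal peaks (10.8% over all), and the central share was higher on all 12 chromosomes. Those with 10 to 12 other acetylations and Pol2 made up 24.7% and 22.1% (22.4% over all), with a higher central share on 9 chromosomes and a lower one on 3. Among members with 10 to 12 other acetylations, Pol2 was present at 55.2% in the centre and at 73.4% at the ends.

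H3K4me3, the mark of transcription start sites of genes, was at 42.9% of central and 32.6% of terminal summits (34.5% over all). It was more frequent in the centre on 11 chromosomes, by up to 25.1 points on chromosome 9, while chromosome 2 had 35.1% in the centre and 35.4% at the ends. H3K4me3 together with Pol2 was about as frequent in both zones, at 22.5% and 21.6% (21.3% over all), whereas H3K4me3 without Pol2 was at 20.4% and 11.0% (13.3% over all). Most of the pooled surplus of H3K4me3 in the centre was thus at members where no Pol2 peak covered the summit. On single chromosomes H3K4me3 with Pol2 was higher in the centre on 9 of 12, by up to 7.86 points. With peaks joined over gaps of up to 1 kb the whole H3K4me3 difference was 1.24 points (interval -0.21 to 2.67). Central members with H3K4me3 had a median H3K9ac fold of 6.62, a median width of 945 bp and a mean of 10.9 other acetylations, and those without it had 2.25, 365 bp and 4.47.

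The other H3K4 methylations diverged from each other. H3K4me2 was at 41.0% of central and 26.9% of terminal summits (30.3% over all), with a higher central share on 11 chromosomes. H3K4me1 was rare at H3K9ac summits, at 5.86% and 7.35% (7.19% over all), and was lower in the centre on all 12 chromosomes. Relative to its cover of the zone, H3K4me1 was 1.53 times as frequent at central summits and 0.26 times at terminal ones. H3K36me3, which follows transcribed gene bodies, was at 18.2% and 18.7% (18% over all), a difference whose interval of -1.30 to 0.34 points includes 0, and it covered 18.1% of central bases, so it was about as frequent at these summits as in the zone. Over members more than 1 kb from any other H3K9ac peak, however, H3K36me3 was at 32.8% in the centre and 42.7% at the ends, and with peaks joined over gaps of up to 1 kb at 29.5% and 39.1%. H3K23me3 was at 24.5% and 23.1% (22.7% over all), higher in the centre on 8 chromosomes and lower on 4. Its direction depended on which members were counted. Among members more than 1 kb from any other H3K9ac peak it was at 42.0% in the centre and 49.2% at the ends.

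H3K27me3, the Polycomb mark of genes silenced in a reversible way, was at 33.4% of central and 23.6% of terminal summits (26.5% over all), and was higher in the centre on all 12 chromosomes, by 2.29 points on chromosome 2 and by 23.1 points on chromosome 1. Its cover of the central zone was 3.20%. Members with both H3K4me3 and H3K27me3 made up 11.99% of central and 5.11% of terminal peaks (6.78% over all). Central members with H3K27me3 had Pol2 at 24.1% of summits, a median H3K9ac fold of 2.43 and a mean of 7.00 other acetylations, and terminal ones had 32.8%, 2.42 and 4.17. H3K27me2 was at 48.6% and 40.1% (42.6% over all), but as a broad list it covered 39.5% of central bases, so its share was 1.23 times its cover. These H3K27me2 peaks were mostly weak, and at a q-value under 0.05 the list was at 1.91% of central and 1.03% of terminal summits. ChIP-seq on whole leaves pools cells, and whether the marks of a member occur on the same chromatin molecule cannot be told apart from a mixture of cells.

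Constitutive heterochromatin marks other than H3K27me1 were rare at the summits although each covered a large part of the zone. H3K9me2 covered 56.7% of central bases and held none of the 10681 central summits, which allows a share of up to 0.0281%, and over all H3K9ac peaks on the 12 chromosomes it held 2 (0.00256%). Only 4 central members touched an H3K9me2 peak by at least 1 bp. H3K56me2 was at 2.05% of central and 0.605% of terminal summits (0.929% over all) although it covered 41.7% of central bases. H3K23me1 was at 1.86% and 1.10% (1.40% over all), H3K14me1 at 1.49% and 0.680% (0.933% over all) and H3K56me1 at 1.33% and 0.425% (0.670% over all). H3K27me1 was the exception, at 12.6% and 8.26% (9.41% over all) with a cover of 20.7% of central bases. In all, at least 1 of the 6 constitutive marks was at 16.3% of central and 9.68% of terminal summits (11.4% over all). All of these peaks were weak, and at a q-value under 0.05 no central summit lay in a peak of any of the 6 lists.

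The Input list, which holds regions that stand out without any antibody, also had peaks at more central summits, 17.5% against 11.6% (13.1% over all), and on all 12 chromosomes. At a q-value under 0.05 the Input was at 1.43% of central and 0.587% of terminal summits. An Input peak touched 49.8% of central and 42.0% of terminal H3K9ac peaks (43.9% over all). Its part in the other differences was not tested, but they were recomputed on the members that no Input peak touched. There, the mean number of other acetylations was 4.94 in the centre and 2.93 at the ends, Pol2 was at 34.7% and 45.1%, H3K4me3 at 19.6% and 13.1% and H3K27me3 was 11.5 points more frequent in the centre. These 4 directions were as before, while that of H3K23me3 turned, to 5.14% in the centre and 6.82% at the ends.

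No other target at all was found at 1.71% of central and 4.05% of terminal summits (3.40% over all). Within the 4 quartiles of H3K9ac fold, taken over all H3K9ac peaks, the directions were unchanged for Pol2, H3K4me3, H3K27me3 and the mean number of acetylations. In the lowest quartile (fold up to 2.05) central members had a mean of 4.76 other acetylations against 2.23 at the ends, and in the highest (fold from 5.81) 11.5 against 11.1. In that highest quartile H3K4me3 was at 90.5% and 86.0% and Pol2 at 77.6% and 83.7%. In acetylation number the zones thus differed mostly in their weak and intermediate H3K9ac peaks, while strong peaks carried nearly every acetylation in both.

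The enrichment of the other targets was compared at the summits they shared with H3K9ac. Where H3K14ac was present, its median fold was 3.13 in the centre and 2.44 at the ends, and for H3K18ac it was 3.28 and 2.56. H3K4me3 had 6.76 and 5.41, and H4K8ac had 4.28 and 3.48. H3K4ac was the only acetylation with a lower median fold in the centre, 3.77 against 4.09, and Pol2 had 5.52 against 5.89. A fold depends on the depth of its library, so these values can be compared between zones and not between targets.

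The surroundings of the members were measured as the distance to H3K9me2. From a central peak the nearest H3K9me2 peak was a median of 5694 bp away (quartiles 2680 and 15317 bp), and from a terminal peak 56032 bp. For the next values no share over all H3K9ac peaks was computed, and H3K9me2 peaks covered 56.7% of central and 9.77% of terminal bases. H3K9me2 lay within 10 kb on both sides of 29.9% of central members (interval 29.1% to 30.8%) and of 1.61% of terminal peaks. On single chromosomes this share ran from 9.20% on chromosome 2 to 52.6% with a median of 46.4%, and at the ends from 0.819% to 2.60%. Still, only 5.22% of the members had H3K9me2 within 1 kb. The stretch between consecutive H3K9me2 peaks that held a central summit had a median length of 23.6 kb, against 280 kb at the ends.

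Most short gaps in the heterochromatin held no H3K9ac. The central zone had 36864 gaps between neighbouring H3K9me2 peaks, with a median length of 1.99 kb, and 2996 of them (8.13%) held an H3K9ac summit. The share rose with length, from 0.775% of gaps up to 5 kb to 38.9% at 10 to 20 kb (interval 37.2% to 40.6%) and 76.2% over 100 kb (32 of 42 gaps). In the same class of length, gaps in the terminal zone were occupied more often, 56.8% at 10 to 20 kb and 99.7% over 100 kb. Per Mb of gap, central gaps of 10 to 20 kb held 68.9 summits and terminal ones 131. In each class of length, central gaps were thus less often and less densely occupied. Lengths still differed within a class, with medians of 25.6 kb in the centre and 31.1 kb at the ends for 20 to 50 kb. Because the H3K9ac list chose the members, these values are description without a test.

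**Figure D5:**
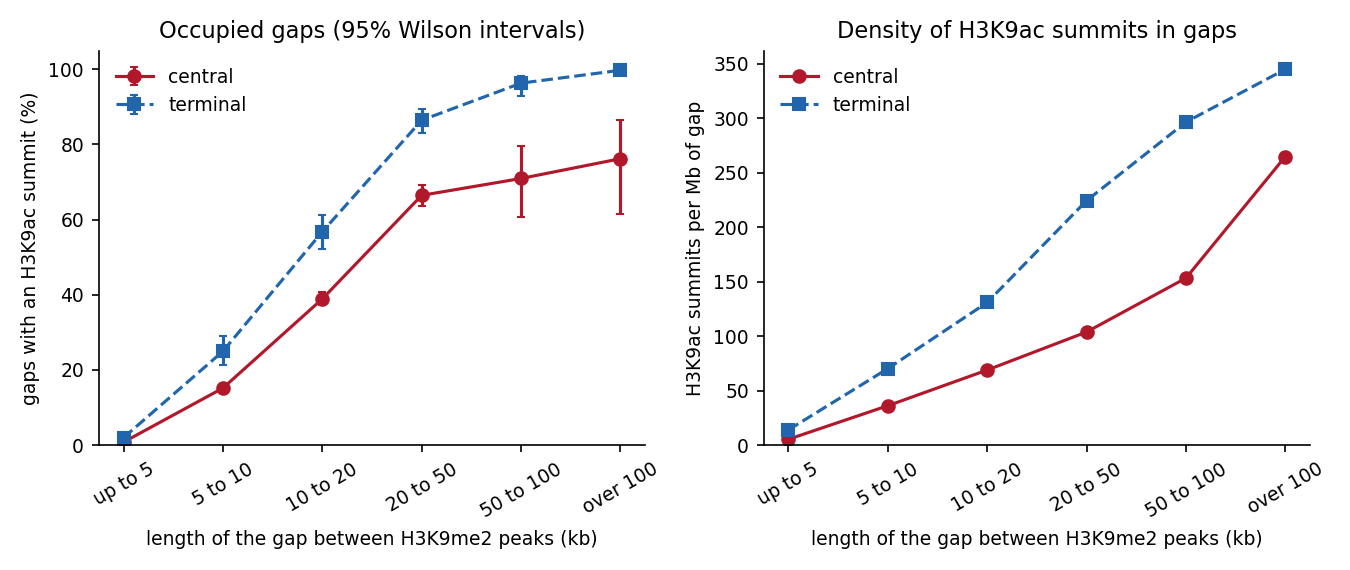
Share of gaps between neighbouring H3K9me2 peaks that hold an H3K9ac summit (left, %, with 95% Wilson intervals) and H3K9ac summits per Mb of gap (right), by gap length (kb), in the central (red) and terminal (blue) zones. In every class of length the terminal value is above the central one, for example 56.8% against 38.9% for gaps of 10 to 20 kb.

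The marks at the members changed with this setting. In 1 Mb windows with less than 10% of bases in H3K9me2, central members had a mean of 5.16 other acetylations and Pol2 at 51.5%, close to the 5.08 and 54.3% of terminal peaks in such windows. Of these 2356 central members, 2004 were on chromosome 2. In windows with 50% to 75% H3K9me2 the 3808 central members had 8.72 other acetylations, Pol2 at 40.9% and H3K4me3 at 53.2%. The 107 terminal peaks in windows of that kind had 8.71 acetylations, Pol2 at 45.8% and H3K4me3 at 56.1%. In acetylation number, central and terminal peaks with like amounts of H3K9me2 around them differed less than the zones as wholes, among windows up to 75%, where the widest gap was 7.60 against 6.63 in windows of 25% to 50%. Windows over 75% held 52 central and 6 terminal peaks, with 9.63 and 11.8 acetylations. For Pol2 the order of the zones depended on the window. In windows of 10% to 25% H3K9me2 it was at 47.9% of central and 43.9% of terminal summits, in windows of 25% to 50% at 41.7% and 39.0%, and only below and above those was it lower in the centre among windows up to 75%. The lower Pol2 share of the whole central zone was therefore not found in every class of surroundings. By gap length the mean number of acetylations fell from 10.2 in central gaps up to 5 kb to 5.09 in those over 100 kb. In terminal gaps it fell from 9.11 to 5.05. The mean was higher in the centre in every class of gap length. It was 8.24 against 6.67 at 10 to 20 kb and 7.32 against 5.75 at 20 to 50 kb. H3K27me3 was most frequent in central gaps of 5 to 10 kb, at 46.9%, and terminal peaks in such gaps had 46.25%. At the ends it was highest in gaps up to 5 kb, at 50% of 46 peaks.

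Central members were also farther from each other. The nearest other H3K9ac peak was a median of 342 bp away in the centre and 224 bp at the ends, and 12.4% of central but 0.776% of terminal peaks had none within 10 kb. The 7188 members with a neighbour within 1 kb had a mean of 6.15 other acetylations and H3K4me3 at 32.5%, and terminal peaks of this kind 4.55 and 26.99%. The 399 members more than 50 kb from any other H3K9ac peak had 10.8 other acetylations, H3K4me3 at 80.2%, Pol2 at 35.1% and Input at 29.3%. In the centre, isolated H3K9ac peaks thus carried more of the other acetylations, and H3K4me3 more often, than those in company. Terminal peaks showed the same order, with 10.3 other acetylations for the 316 that were 10 to 50 kb from the next. Joining neighbouring peaks made the zone differences in acetylation number and H3K4me3 smaller. Joining also keeps only the strongest summit of each stretch, so the part of spacing apart from peak strength was not tested. When H3K9ac peaks within 1 kb of each other were joined into 5772 central and 16470 terminal stretches, and the summit of the strongest was used, the mean number of acetylations was 9.58 against 8.63 and H3K4me3 was at 63.8% and 62.5%. H3K27me3 in joined stretches was at 32.2% and 19.99% and Pol2 at 47.8% and 59.4%.

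Members separated by at most 50 kb formed 1340 clusters with a median of 3 peaks, and 188 clusters of 10 or more held 68.1% of the members. The largest had 865 members over 2.64 Mb at chr2:38668267-41311859 (coordinates are in version 1 of the M82 genome), with 1.52% of its span in H3K9me2. Its members had a mean of 5.37 other acetylations and Pol2 at 56.5%, near the values of the chromosome ends. The next were 724 members at chr2:34300189-36555761, with Pol2 at 43.9%, and 627 at chr3:47773200-49985739, with Pol2 at 56.8%. All 3 lay in the denser right part of the zone, from 62.3% of the chromosome length onwards. The largest ended at 75.00%, where the limit of the zone cuts it, so its size counts only the members inside.

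Single members show the range. The gene models of this genome version were not used here, so no gene is named. The strongest member, chr2:37460376-37464250, was 3875 bp wide with a fold of 31.5, and its summit lay in peaks of all 12 other acetylations, Pol2 (fold 11.6), H3K4me3 (fold 12.7), H3K4me2 and H3K27me2. It was 47.6 kb from the nearest H3K9me2. The next by fold, chr2:39184653-39188699 (27.1) and chr3:48702742-48704836 (26.01), also had Pol2, H3K4me3 and all 12. The longest member, chr3:49680371-49695680, ran for 15310 bp with 89.8% of its length in Pol2 peaks and 27.01% in H3K4me3 peaks, so that Pol2 extended over most of it and H3K4me3 over a limited stretch. The other long members, chr3:49396032-49407116 and chr2:40631756-40642325, had 97.7% and 97.5% of their length in Pol2 peaks, and 48.3% of the last was also in H3K27me3 peaks.

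The members with H3K27me3 at the summit reached high H3K9ac too. The strongest, chr2:35134920-35136161, had a fold of 25.9, all 12 other acetylations, H3K4me3 (fold 6.81) and H3K27me3 (fold 1.60) over its whole length, and no Pol2 at its summit, although Pol2 peaks covered 42.3% of it. The next, chr11:36180279-36186104 and chr10:27104304-27107206, had folds of 25.8 and 24.0 and carried Pol2 together with H3K27me3 at the summit. The member on chromosome 10 lay in a gap of 14.04 kb between H3K9me2 peaks.

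The member farthest from any other H3K9ac peak, chr9:20666526-20667359, was 1249 kb from the next and sat in a gap of only 3.17 kb between H3K9me2 peaks. It was 834 bp wide, had a fold of 12.9 and a solved pileup of 131 reads, carried all 12 other acetylations and H3K4me3 with a fold of 17.4, and no part of it was in a Pol2 peak. H3K27me3 (fold 2.59) and H3K27me2 covered its summit as well. The next by distance, chr12:33729847-33730521 (888 kb) and chr11:32870106-32871328 (840 kb), had 10 and 12 other acetylations and H3K4me3 with folds of 11.8 and 7.85, and neither had Pol2 at the summit. The one on chromosome 12 also had an Input peak there (fold 2.55).

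At the other extreme were 293 members (2.74%) that no other acetylation and no Pol2 peak touched, with a median fold of 2.02, a width of 243 bp and a solved pileup of 21 reads. Of the terminal peaks 5.66% were of this kind. The strongest, chr6:38311532-38312374, had a fold of 4.84, a pileup of 44 reads and no other target at its summit, and it lay 0.103 kb from another H3K9ac peak. The next, chr6:35587931-35588420 (fold 3.81) and chr2:40047580-40047984 (fold 3.63), likewise lay within 1 kb of another. The last had H3K27me2 at its summit, and H3K27me3 peaks covered 15.7% of the one before it. A neighbour within 1 kb was common to 67.3% of all central members.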

How the data were processed

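The labels assign 1 library to each of 27 targets and to the Input. According to the methods of the study, leaf chromatin was immunoprecipitated, libraries made from 10 ng of DNA were read for 75 bp from a single end, and the authors trimmed reads with Trimmomatic 0.38, aligned them with Bowtie2 2.3.5 to version 1 of the M82 genome, used SAMtools 1.9, removed duplicates and alignments with a mapping quality under 30, and called peaks with MACS2 2.2.7.1 (p-value 0.05, extension 150 bp). The methods speak of 2 biological replicates. The sources used here do not say whether lists without a replicate tag pool them, nor which control a list was called against. The deposited lists (17 narrow, 11 broad) give per peak a fold ratio of pileup over background, −log10 of the p-value and −log10 of the q-value, and a score that was not used. In broad lists these are averages over the peak. Removing alignments of low mapping quality lowers the reads kept in repeats, and its part in the central values was not tested.

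Chromosome length was the largest peak end in any list. All H3K9ac peaks on the 12 chromosomes were kept, and 94 on other sequences were left out. Peaks of the other lists needed a fold above 1.5. The lists give no read totals, so depth is unknown. The pileup and background at H3K9ac summits were solved from fold and p-value, with peaks of −log10 p-value of 200 or more left out (349 central, 2270 terminal), and all solved pileups were whole to within 0.02. Named regions are the 3 first by fold, length, fold without other acetylation or Pol2, fold with H3K27me3, distance from other H3K9ac peaks at a q-value under 0.05, and members per cluster. The members, lists and rules were chosen with earlier results of these data known. No p-value was computed. Alternatives were a cover of at least 50% of the peak, any overlap, other filters, a zone of 35% to 65% and chromosome 2 left out. Others were central members only from windows rich in H3K9me2, no Input peak, and quartiles of fold and width. Code was tested on simulated data. Python 3.11.15, numpy 2.4.6, pandas 2.3.3, scipy 1.17.1 and matplotlib 3.10.9 were used.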

Additional observations from a re-analysis of the deposited data

How the results depend on the processing

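No paired analysis was possible because each target has 1 library. Of 359 values recomputed, 339 kept their direction, and 5 reversed a reported difference that was beyond counting error. Apart from those 5, 226 moved beyond the 95% counting interval of the reported value, which is narrow at these numbers of peaks. The 12 acetylations were each more frequent in the centre, by 2.59 to 32.8 points, under the 11 alternatives computed per list, and in the quartiles only their mean number was computed. Central minus terminal values follow, in points of share except for the mean number of acetylations. With at least 50% of the member covered, Pol2 was -9.64, H3K4me3 11.4 and the mean number of acetylations 2.62, and with 1 bp shared H3K4me3 was 11.5. Without a fold filter H3K27me3 was 7.72 and H3K9me2 within 10 kb on both sides 32.2, and with a q-value under 0.05 the latter was 16.0, while H3K27me1 (-0.0068) and H3K23me1 (-0.0046) turned sign on no central and very few terminal summits. In the zone from 35% to 65%, Pol2 was -10.9, H3K4me3 15.02, acetylations 2.80 and H3K9me2 on both sides 36.9. Without chromosome 2 they were -10.00, 13.8, 2.70 and 37.3, and H3K27me3 was 12.2. With central members limited to windows of at least 25% H3K9me2 and all terminal peaks kept, Pol2 was -11.6, H3K4me3 15.8, H3K27me3 13.2 and acetylations 3.07. This setting does not compare the zones in like windows. With no Input peak touching, Pol2 was -10.4, H3K4me3 6.49, H3K27me3 11.5, H3K9me2 on both sides 24.8, and H3K23me3 turned to -1.68. In quartiles 1 to 4 of H3K9ac fold, acetylations were 2.53, 2.49, 2.76 and 0.43, H3K4me3 8.82, 9.08, 17.1 and 4.54, H3K27me3 14.1 and 4.58 in the first and last, and Pol2 -13.4 and -6.01 in the last pair. In quartiles 1 to 4 of width, acetylations were 2.48, 2.92, 2.60 and 1.07, H3K4me3 8.04, 14.1, 18.04 and 7.57, H3K27me3 13.4, 11.7, 7.76 and 4.65, and Pol2 -7.33 and -2.15 in the last pair. The remaining alternatives were chosen after seeing the data. With peaks joined over gaps of up to 1 kb, Pol2 was -11.5, H3K4me3 1.24, H3K27me3 12.3, acetylations 0.949, H3K9me2 on both sides 34.9, and H3K23me3 turned to -10.3. With members over 1 kb from other H3K9ac peaks, H3K4me3 was 4.74, H3K27me3 12.8, acetylations 1.40, H3K9me2 on both sides 36.7, and H3K23me3 turned to -7.19. The size of the H3K4me3 and acetylation differences thus depended on how neighbouring peaks were counted, and the cause was not tested. Depth is unknown, so an absent peak in a list may lie below what its depth can show.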
